A study of Rattus norvegicus with 6 samples.

Results

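The genes described here encode the subunits of the mitochondrial respiratory chain and of ATP synthase, in the nuclear and in the mitochondrial genome. They were chosen by symbol, as gene models of certain names. These names begin with Nduf, a subunit letter and a digit, with Uqcr, with Cox followed by 4 to 8, or with Atp5. Sdha to Sdhd and the mitochondrially encoded Mt-nd, Mt-co, Mt-atp and Mt-cyb genes were also taken. This gave 98 of the 21028 gene models in the table, of which 85 are nuclear and 13 are mitochondrial. RNA was sequenced after poly(A) enrichment from the sciatic nerve of 6 wild-type female rats whose nerve was repaired with a conduit. In 3 rats, the PCL group, the conduit was of PCL and no ultrasound was applied. In the other 3, the PLLARS_US group, the conduit was of PLLARS and the rats were stimulated with ultrasound. Conduit material and ultrasound differ together between the groups and cannot be told apart, and the labels give neither the age of the rats nor the time after surgery. Expression was deposited as FPKM, sequenced fragments per unit of model length and of library depth, a depth of between 15320000 and 16690000 fragments as judged from the steps between low values. A gene was tested where its mean FPKM over the 6 libraries was at least 1. The libraries are taken as 1 per rat, and p-values measure only the spread between these samples.

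The respiratory chain sits in the inner mitochondrial membrane. Complex I takes electrons from NADH and complex II takes them from succinate, ubiquinone carries them to complex III, cytochrome c carries them on to complex IV, and complex IV passes them to oxygen. Complexes I, III and IV pump protons, and ATP synthase uses the proton gradient to make ATP. All of these complexes except complex II hold subunits from both genomes, so their assembly needs nuclear and mitochondrial transcripts. Skeletal muscle is rich in mitochondria, and rodent muscle uses its own forms of some complex IV subunits.

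No respiratory chain gene passed the test for a difference between the groups. After limma's test with Benjamini-Hochberg adjustment over all tested genes, 0 of 83 tested nuclear members and 0 of 13 mitochondrial members had an adjusted p under 0.05, and 0 members of either kind had an unadjusted p under 0.05. Over all 13720 tested genes the adjusted call rate was also 0 percent, with a smallest adjusted p of 0.113, while 960 genes, or 7.00 percent, had an unadjusted p under 0.05. Of all tested genes, 1.99 percent had an unadjusted p under 0.05 and were higher in PLLARS_US, and 5.01 percent were lower. Among the 83 nuclear members 61 had a lower mean in PLLARS_US and 22 a higher mean, with a median difference of -0.063 on the log2(FPKM + 1) scale, against a median of -0.042 and 57.0 percent lower over all tested genes. Among the 13 mitochondrial members 8 were higher and 5 lower, with a median difference of 0.018. The design bounds these differences only loosely, since the median 95 percent interval reached 0.45 log2 units to each side for a nuclear member and 0.70 for a mitochondrial member. The count of lower nuclear members depends on the scaling and on PCL replicate 3. It was 43 of 83 after median-ratio scaling, 56 after quantile normalization, and 27 without PCL replicate 3, when the nuclear median became 0.075. With limma array weights, which let noisy libraries count less, it was 36, and 118 of all tested genes then passed the adjusted threshold, with 0 members among them. The count of lower mitochondrial members was 2 of 13 after median-ratio scaling, 7 after quantile normalization and 1 with array weights. It was 0 without PCL replicate 3, and 13 without PCL replicate 2 or without PLLARS_US replicate 1.

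**Figure D1:**
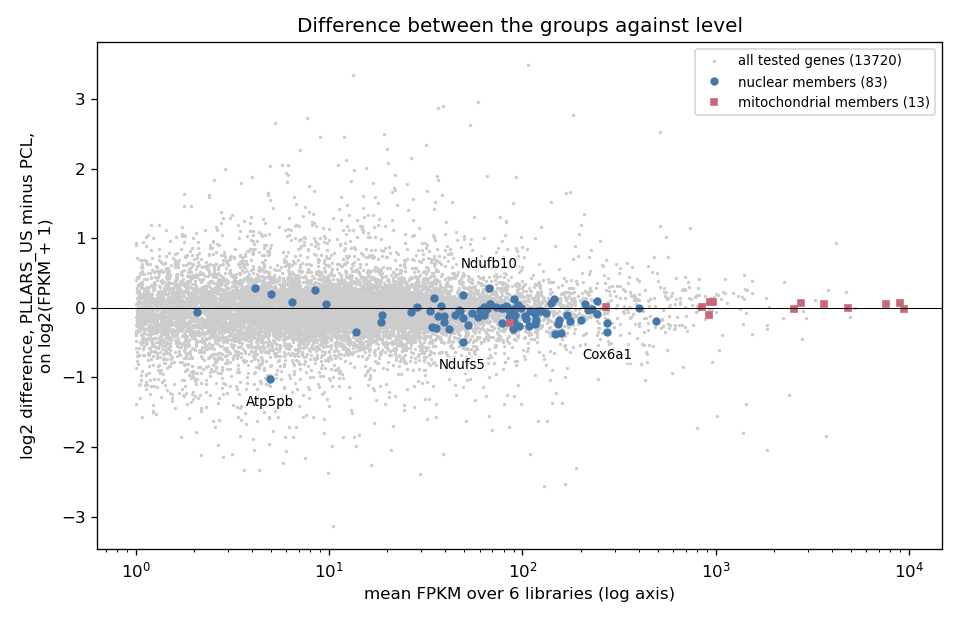
Difference between the groups (vertical axis, PLLARS_US minus PCL on log2(FPKM + 1)) against the mean FPKM over the 6 libraries (horizontal log axis) for all 13720 tested genes (grey), the 83 tested nuclear members (blue) and the 13 mitochondrial members (red). The members lie within the grey cloud, mostly just below 0 for the nuclear members and close to 0 for the mitochondrial members, and Atp5pb, at -1.02, is the nuclear member farthest from 0.

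The libraries differed in the tissue they held. Of 20 skeletal muscle markers 17 were in the table, and 1 of these, Myh7, was under 1 FPKM in every library. Their mean log2(FPKM + 1) was 2.49, 5.15 and 7.24 in PCL replicates 1 to 3 and 7.45, 1.01 and 5.78 in PLLARS_US replicates 1 to 3. Their summed FPKM ran from 134 to 11139 in the PCL group and from 29.4 to 16706 in the PLLARS_US group. PCL replicate 3 and PLLARS_US replicate 1 thus held the most muscle marker RNA, and each group had a library rich and a library poor in it. Acta1, Ckm, Mb, Myh4, Pvalb and Tnnt3 were highest in these 2 libraries, but not every marker was. Tnnt1, at 1.35 to 3.22 FPKM, was lowest in PCL replicate 3. Tnni1 was at 4.98 FPKM in PCL replicate 3 but at 1.38 in PLLARS_US replicate 1, about as in PCL replicate 1 (1.37). Of 6 cardiac markers 3 were under 1 FPKM in all libraries, among them Nppa and Tnni3. The same 2 muscle-rich libraries had the lowest mean log2(FPKM + 1) of fibroblast markers, 8.55 and 8.76 against 9.46 to 9.60 in the others. They had the highest mean of macrophage markers, 6.49 and 6.52 against 6.02 to 6.11. All 7 Schwann cell markers in the table were at 1 FPKM or more in some library, and their mean log2(FPKM + 1) ran from 5.78 to 6.84. Fat markers summed to between 46.9 and 369 FPKM, endothelial markers to between 44.1 and 85.8 FPKM, and red blood cell markers to between 113 and 20721 FPKM. In bulk tissue, fewer cells of a type and less RNA per cell cannot be told apart.

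The clearest pattern among the members was between libraries and not between groups. PCL replicate 3 had the highest FPKM of the 6 libraries for 61 of the 83 tested nuclear members, or 73.5 percent, against 18.1 percent of all tested genes. The summed FPKM of all 85 nuclear members was 7605, 7331 and 10511 in PCL replicates 1 to 3 and 8374, 7448 and 7661 in PLLARS_US replicates 1 to 3. PCL replicate 3 stood alone at the top, and the other 5 libraries lay closer together. The highest library was less than 2 times the lowest for 70 of the 83 tested nuclear members, with a median ratio of 1.54, and for 12 of the 13 mitochondrial members, with a median of 1.61. The median deviation of the tested nuclear members from their gene means was 0.34 log2 units in PCL replicate 3 and between -0.11 and 0.055 in the others, while the median of all tested genes was below 0 in that library, at -0.073. PLLARS_US replicate 1, with at least as much muscle marker RNA, had a nuclear median deviation of 0.055, the second highest. The median of all tested genes in PLLARS_US replicate 1 was -0.145, the lowest of the libraries. In the remaining libraries the nuclear median lay below that of all tested genes. Macrophage markers were about as high in PLLARS_US replicate 1 as in PCL replicate 3. The part that the muscle or macrophage RNA has in the level of PCL replicate 3 was not tested. With the muscle marker level as a covariate, the nuclear median difference between the groups was -0.057 and 57 of 83 nuclear members were lower.

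**Figure D2:**
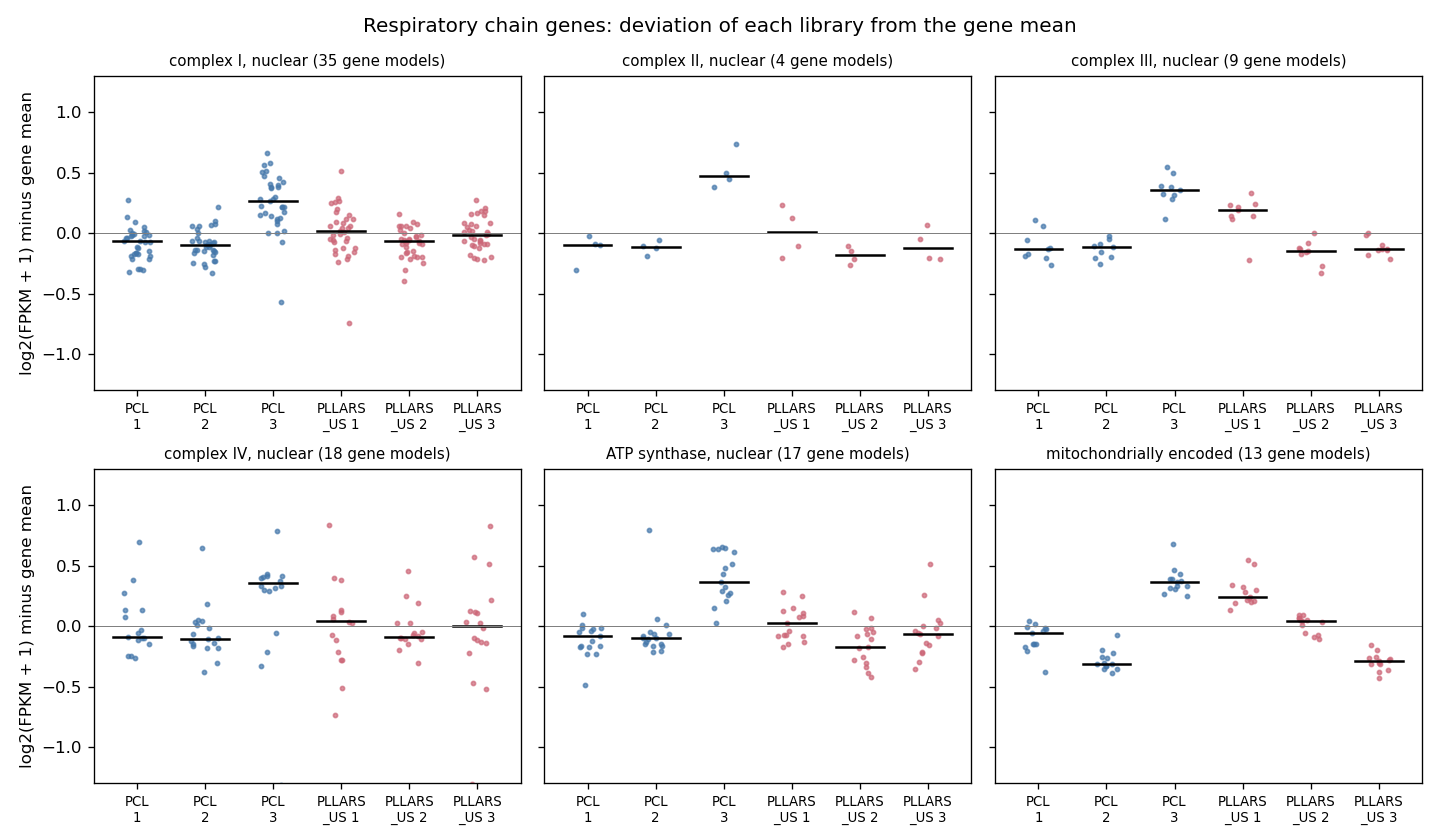
Deviation of each library from the gene's mean on log2(FPKM + 1) (vertical axis) by library (horizontal axis), 1 point per tested gene model and a bar at the median, with PCL in blue and PLLARS_US in red, for the nuclear members of each complex and the mitochondrially encoded members. PCL replicate 3 has the highest median in every panel. Points beyond 1.3 log2 units, which belong to 6 gene models (Atp5pb, Ndufa1, Cox6a2, Cox6b2, Cox8b and Ndufa4l2), are not drawn.

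Complex I, which oxidises NADH, had 36 nuclear gene models, of which 35 were tested. Of these 23 were lower and 12 higher in PLLARS_US, with a median difference of -0.038 log2 units and 0 at an unadjusted p under 0.05. After median-ratio scaling 14 were lower and the median was 0.024, and without PCL replicate 3 it was 9 and 0.084. Ndufs3, a core subunit and among the 3 models of smallest p in the complex, was at 32.0, 36.5 and 50.1 FPKM in PCL and at 32.0, 32.3 and 30.3 FPKM in PLLARS_US. PCL replicate 3 was far above the other 5 libraries, which lay between 30.3 and 36.5. The groups overlapped, and the limma adjusted p of Ndufs3 was 0.84. Without PCL replicate 3 the difference was -0.11 in place of -0.29 log2 units.

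Ndufs5, an accessory subunit on the intermembrane space side, had the smallest p of complex I. It was at 57.6, 49.96 and 63.3 FPKM in PCL (56.9 ± 6.67, SD, n = 3) and at 28.0, 49.7 and 45.5 FPKM in PLLARS_US (41.1 ± 11.5, SD, n = 3). The groups did not overlap, although PCL replicate 2 and PLLARS_US replicate 2 were nearly equal. The difference was -0.50 log2 units with a standard error of 0.24, a 95 percent interval from -1.08 to 0.085, and a limma adjusted p of 0.789. Without PLLARS_US replicate 1, the lowest library, it was -0.25. Ndufb10, another accessory subunit, was higher on average in PLLARS_US, with 57.5, 52.8 and 72.7 FPKM in PCL and 80.3, 66.6 and 74.7 FPKM in PLLARS_US, and a difference of 0.28 with a limma adjusted p of 0.832. Its groups overlapped through PCL replicate 3. Ndufb8 and Ndufb9, accessory subunits of the membrane arm, were the most abundant models by mean FPKM, at 118 and 115, and their group differences were -0.18 and -0.09 log2 units.

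Ndufa1, a small membrane subunit of complex I, behaved unlike any other model of the complex. It was at 146, 0.295 and 154 FPKM in PCL and at 159, 92.0 and 0.600 FPKM in PLLARS_US, so that 4 libraries were high and 1 library of each group was near 0. Of the 82 nuclear members that reached 5 FPKM in some library, 4 were under 1 FPKM in another (Ndufa1, Atp5pb, Cox6a2 and Cox8b), or 4.88 percent, against 5.17 percent of the 11283 models of the whole table that reached 5 FPKM. The limits of 5 and 1 FPKM, like the naming of Ndufa1 and Atp5pb, were chosen after the values were seen. An FPKM near 0 for a gene that every cell uses can be a failed estimate. Ndufa1 and Atp5pb are therefore listed by library, and their group means carry little. Cox6a2 and Cox8b, forms used in muscle, are also listed by library below. The Ndufs6 row of the table is a pseudogene in RefSeq (Ndufs6-ps1) and stayed at or under 1.20 FPKM in all libraries, so the gene for this iron-sulfur protein subunit was not analysed here.

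Complex II, succinate dehydrogenase, is encoded by 4 nuclear genes and also serves the citric acid cycle. All 4 were highest in PCL replicate 3 and lower on average in PLLARS_US (3 of 4 after median-ratio scaling), with a median difference of -0.20 log2 units and 0 at an unadjusted p under 0.05. Without PCL replicate 3 the median was -0.016. Sdhd, which helps anchor the enzyme in the membrane, was at 81.6, 76.1 and 146 FPKM in PCL and at 80.7, 78.4 and 74.6 FPKM in PLLARS_US. Its 5 libraries other than PCL replicate 3 were within a few FPKM of each other. Sdhb, the iron-sulfur subunit, was at 107, 110 and 162 FPKM in PCL and at 125, 95.3 and 99.2 FPKM in PLLARS_US. Sdhc, the other membrane anchor, was at 102, 95.7 and 135 FPKM in PCL and at 89.3, 95.9 and 108 FPKM in PLLARS_US. The limma adjusted p of these genes was between 0.886 and 0.923. Without PCL replicate 3 the difference was -0.016 in place of -0.31 for Sdhd and -0.036 in place of -0.23 for Sdhb.

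Complex III had 9 nuclear models, of which 8 were lower in PLLARS_US, with a median difference of -0.063 log2 units and 0 at an unadjusted p under 0.05. After median-ratio scaling 5 were lower, and without PCL replicate 3 only 1 was, with a median of 0.12. Here 8 of 9 models were highest in PCL replicate 3, and the median deviation of PLLARS_US replicate 1 was 0.19 log2 units. The medians of the remaining 4 libraries lay between -0.14 and -0.11. In each of the 5 nuclear complexes PLLARS_US replicate 1 had the second highest median deviation after PCL replicate 3. Uqcrh, the hinge protein between cytochrome c and cytochrome c1, had the smallest p and the highest mean. It was at 164, 147 and 186 FPKM in PCL (166 ± 19.2, SD, n = 3) and at 130, 152 and 138 FPKM in PLLARS_US (140 ± 11.3, SD, n = 3), with a difference of -0.23 log2 units and a limma adjusted p of 0.84. The groups overlapped through PCL replicate 2 and PLLARS_US replicate 2. The small subunits Uqcr11, Uqcr10 and Uqcrq had mean FPKM of 124, 85.0 and 44.9, with differences of -0.044, -0.14 and -0.10 log2 units. The processed copy Uqcrb-ps1 was listed at 2.37 to 3.29 times the FPKM of Uqcrb, the gene for a ubiquinone-binding subunit, in every library, so reads of this subunit are uncertain between the 2 models.

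Complex IV, cytochrome c oxidase, had 19 nuclear models including Ndufa4 and Ndufa4l2, which carry a complex I name while NDUFA4 is now counted as a complex IV subunit. Of 18 tested models 13 were lower and 5 higher in PLLARS_US, with a median difference of -0.074 log2 units and 0 at an unadjusted p under 0.05. After median-ratio scaling 10 were lower, and without PCL replicate 3 it was 8, with a median of 0.075. Cox4i1, the general form of subunit IV and the most abundant nuclear complex IV model, was at 371, 351 and 489 FPKM in PCL and at 422, 377 and 394 FPKM in PLLARS_US. Its difference was -0.0072 log2 units with a 95 percent interval from -0.44 to 0.43. Cox6a1, the form of subunit VIa found in most tissues, had the smallest p of all members, 0.0655 unadjusted and 0.751 adjusted. It was at 286, 281 and 359 FPKM in PCL (309 ± 43.9, SD, n = 3) and at 224, 252 and 247 FPKM in PLLARS_US (241 ± 15.2, SD, n = 3). All PLLARS_US libraries were below all PCL libraries, the difference was -0.35 log2 units, and its 95 percent interval ran from -0.73 to 0.030. After quantile normalization its unadjusted p was 0.0482.

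Few nuclear members had groups that did not overlap. In 5 of 83, Cox6a1, Ndufs5, Atp5f1d, Atp5mc3 and Atp5pf, every PLLARS_US library was below every PCL library, which is 6.02 percent against 10.0 percent of all tested genes. In 0 of 83 every PLLARS_US library was above, against 4.33 percent of all tested genes. Cox5b and Cox7a2l, a complex IV subunit and a protein that helps join complexes III and IV, ran against the common library order (named after their values were seen). Cox5b was at 172, 128 and 112 FPKM in PCL and at 99.2, 162 and 203 FPKM in PLLARS_US. Cox7a2l was at 153, 137 and 119 FPKM in PCL and at 114, 166 and 151 FPKM in PLLARS_US. In each group the muscle-rich library was the lowest for both genes.

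Of the tissue forms of complex IV subunits, Cox6a2 and Cox8b followed the muscle marker level of each library. Cox6a2 and Cox8b are the forms that rodent heart and skeletal muscle use in place of Cox6a1 and Cox8a. Cox6a2 was at 0.962, 17.3 and 95.5 FPKM in PCL and at 155, 0.130 and 27.6 FPKM in PLLARS_US. Cox8b was at 0.409, 7.10 and 53.0 FPKM in PCL and at 42.5, 0 and 8.22 FPKM in PLLARS_US. Acta1, the skeletal muscle actin, was at 26.6, 400 and 3118 FPKM in PCL and at 4632, 2.07 and 1094 FPKM in PLLARS_US. All 3 genes were highest in PCL replicate 3 and PLLARS_US replicate 1, followed by PLLARS_US replicate 3 and PCL replicate 2, and Cox6a2 and Acta1 put the 6 libraries in the same order. The group differences of 0.18 log2 units for Cox6a2 and -0.21 for Cox8b had 95 percent intervals from -5.03 to 5.39 and from -4.52 to 4.11, so they bound little.

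As a share of both forms by FPKM, Cox6a2 made up 0.335, 5.82 and 21.0 percent in PCL and 40.9, 0.0516 and 10.1 percent in PLLARS_US. Cox8b made up 0.242, 3.87 and 19.4 percent in PCL and 22.0, 0 and 4.80 percent in PLLARS_US. The form used in muscle was thus never the larger part at a subunit, and the share differed more between rats of a group than between the groups. The sum of Cox6a1 and Cox6a2 was 287, 298 and 455 FPKM in PCL and 378, 252 and 275 FPKM in PLLARS_US, so the groups that did not overlap for Cox6a1 alone overlapped for the subunit. Cox8a was at 168, 176 and 220 FPKM in PCL and at 151, 178 and 163 FPKM in PLLARS_US. The model of Cox7a1, the muscle form of subunit VIIa in rodents, was listed between 0 and 0.201 FPKM in all libraries, under the floor for testing, also in the libraries where Acta1 was at 3118 and 4632 FPKM. Such values can come from a faulty gene model or a failed estimate, so they do not give the level of the gene. The model named Cox7a2l2, whose Entrez identifier RefSeq gives to Cox7a2, the partner form, was between 148 and 224 FPKM.

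**Figure D3:**
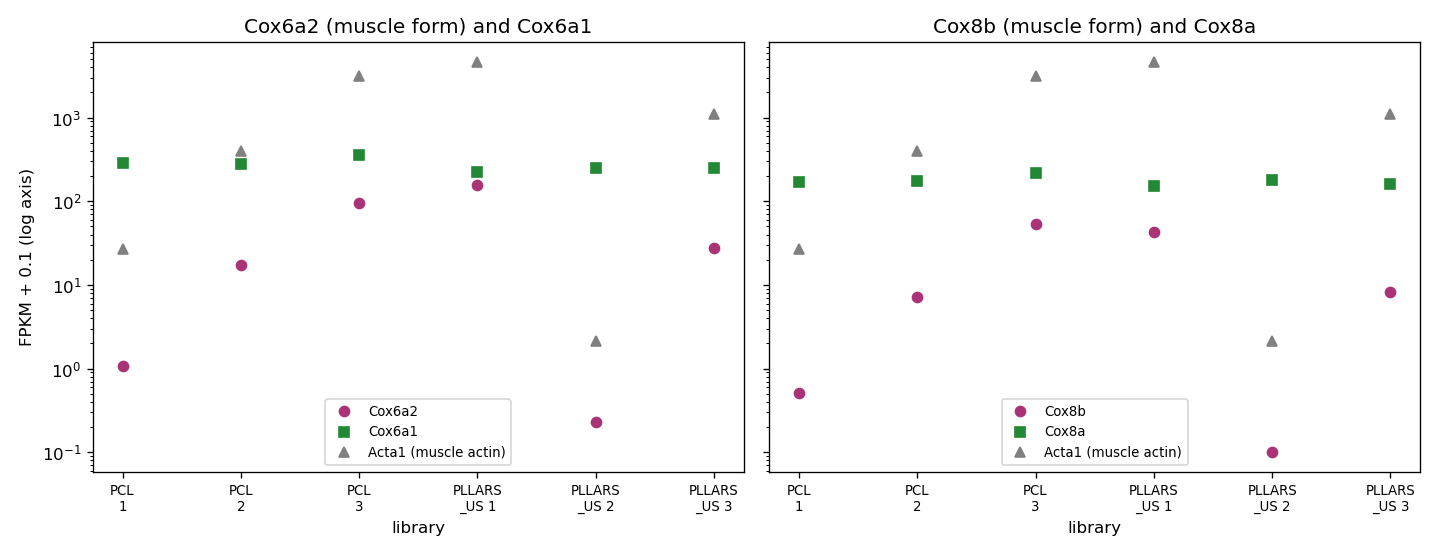
FPKM + 0.1 (vertical log axis) in each of the 6 libraries (horizontal axis) for the muscle form (purple circles), its partner form (green squares) and Acta1 (grey triangles), with Cox6a2 and Cox6a1 on the left and Cox8b and Cox8a on the right. Cox6a2 and Cox8b run from 0.130 to 155 FPKM and from 0 to 53.0 FPKM and are high where the muscle actin Acta1 is high, while Cox6a1 stays between 224 and 359 FPKM and Cox8a between 151 and 220 FPKM.

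The promoters of Cox6a2 and Cox8b are shown because these genes varied most between libraries among the complex IV members, and that of Cox8a because it is the partner of Cox8b. The windows come from RefSeq, build GRCr8, and run from 250 bases before to 50 bases after the annotated start, written 5′ to 3′ on the strand of the gene. Cox6a2 lies at chr1:192219667-192219966, Cox8b at chr1:205408224-205408523 and Cox8a at chr1:213833574-213833873, all on the minus strand. Capitals mark matches on either strand to the E-box CAGCTG, a letter sequence bound by myogenic factors, to the MEF2 motif, which is CTA and TAG with any 4 bases between them, and to the ETS motif CCGGAAGT, a core bound by the GABP factor.
Cox6a2: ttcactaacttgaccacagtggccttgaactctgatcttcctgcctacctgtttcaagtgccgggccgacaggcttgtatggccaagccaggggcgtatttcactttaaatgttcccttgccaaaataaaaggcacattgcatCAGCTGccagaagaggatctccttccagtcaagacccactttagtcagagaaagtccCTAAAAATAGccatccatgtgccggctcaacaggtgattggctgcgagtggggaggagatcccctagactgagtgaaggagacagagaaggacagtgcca
Cox8b: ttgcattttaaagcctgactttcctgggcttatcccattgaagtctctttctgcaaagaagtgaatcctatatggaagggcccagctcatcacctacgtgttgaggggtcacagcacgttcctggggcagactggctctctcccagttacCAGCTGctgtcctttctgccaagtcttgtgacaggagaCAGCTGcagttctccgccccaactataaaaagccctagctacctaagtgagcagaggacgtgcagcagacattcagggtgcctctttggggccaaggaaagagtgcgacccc
Cox8a: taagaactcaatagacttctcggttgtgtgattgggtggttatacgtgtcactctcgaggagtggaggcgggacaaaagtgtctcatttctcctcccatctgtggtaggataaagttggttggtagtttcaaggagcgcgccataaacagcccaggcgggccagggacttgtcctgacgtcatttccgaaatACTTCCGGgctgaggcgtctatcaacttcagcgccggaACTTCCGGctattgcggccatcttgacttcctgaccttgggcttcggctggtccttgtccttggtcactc
The Cox6a2 window held 1 E-box and 1 MEF2 match, the Cox8b window 2 E-boxes, and the Cox8a window 2 ETS matches. Of 80 nuclear members that are not pseudogenes in RefSeq, 71 had a window in the table, and Cox6a1 was among those without. The NRF-1 motif, named for nuclear respiratory factor 1 and searched as GCGCA and GCGC with any base between them, was in 13 of the 71 windows, or 18.3 percent, against 4.25 percent of all 33469 RefSeq promoter windows and 5.67 percent of those of protein-coding genes. The ETS motif was in 8 windows, or 11.3 percent, against 3.81 percent of all windows and 4.77 percent of those of protein-coding genes. The E-box was in 11 windows, or 15.5 percent, against 15.1 percent of all windows. The MEF2 motif was in 2, those of Cox5b and Cox6a2, or 2.82 percent against 3.84 percent. All 4 motifs were searched on both strands and do not overlap in these 3 sequences. They were chosen with some of these sequences in view, and a match describes letters in a window and is not a binding site.

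The other tissue forms had other library orders. Cox4i2, a form of subunit IV known from lung and from low oxygen, was at 2.29, 1.31 and 2.78 FPKM in PCL and at 2.95, 2.05 and 1.09 FPKM in PLLARS_US, and made up 0.276 to 0.695 percent of both forms. It too was highest in the 2 muscle-rich libraries, but its range was narrow and PCL replicate 1, poor in muscle, came next. Ndufa4l2, a paralog of Ndufa4 known as a target of hypoxia-inducible factor, was at 20.6, 11.3 and 11.8 FPKM in PCL and at 22.9, 11.9 and 4.41 FPKM in PLLARS_US. Its share of both forms ran from 4.11 percent in PLLARS_US replicate 3 to 20.7 percent in PCL replicate 1. Its group difference was -0.34 log2 units with a limma adjusted p of 0.954. Cox6b2, a form of subunit VIb known from testis, was at 5.97, 7.36 and 1.15 FPKM in PCL and at 2.21, 6.32 and 6.94 FPKM in PLLARS_US. It was lowest in the 2 muscle-rich libraries, opposite to Cox6a2. The partner genes Ndufa4 and Cox6b1 had mean FPKM of 95.4 and 155, with differences of 0.04 and -0.18 log2 units. Cox7b, a subunit VIIb gene, had a mean of 120 FPKM and a difference of -0.043.

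ATP synthase had 17 nuclear models, of which 13 were lower in PLLARS_US, with a median difference of -0.17 log2 units and 0 at an unadjusted p under 0.05. After median-ratio scaling 11 were lower, and without PCL replicate 3 it was 6, with a median of 0.045. PCL replicate 3 was the highest library for 14 of them. Atp5f1b and Atp5f1a, the catalytic beta subunit and the alpha subunit of the F1 head, were the most abundant. Atp5f1b was at 404, 430 and 749 FPKM in PCL and at 564, 384 and 409 FPKM in PLLARS_US. Atp5f1a was at 226, 251 and 415 FPKM in PCL and at 282, 219 and 241 FPKM in PLLARS_US. Both were highest in PCL replicate 3 and next highest in PLLARS_US replicate 1, and their differences were -0.18 and -0.22 log2 units with limma adjusted p of 0.954 and 0.935.

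The 3 ATP synthase genes of smallest p were those whose groups did not overlap, with PLLARS_US below. These are 17.6 percent of the 17 models, beside 10.0 percent of all tested genes. Atp5f1d, the delta subunit of the central stalk, was at 41.3, 39.2 and 58.8 FPKM in PCL and at 36.2, 39.1 and 34.9 FPKM in PLLARS_US. Atp5mc3, which encodes the c subunit of the membrane ring as do Atp5mc1 and Atp5mc2, was at 152, 147 and 241 FPKM in PCL and at 140, 129 and 139 FPKM in PLLARS_US. Atp5pf, a peripheral stalk subunit, was at 74.9, 80.7 and 97.4 FPKM in PCL and at 73.7, 68.4 and 73.0 FPKM in PLLARS_US. The margin was small in each, since the lowest PCL and the highest PLLARS_US library nearly met. Each gene was highest in PCL replicate 3. The differences were -0.31, -0.37 and -0.22 log2 units, with limma adjusted p of 0.836, 0.836 and 0.84. Without PCL replicate 3 they were -0.14 for Atp5mc3 and -0.12 for Atp5pf. Atp5pb, another peripheral stalk subunit, was listed at 14.6, 5.24 and 0.378 FPKM in PCL and at 8.86, 0.240 and 0.310 FPKM in PLLARS_US. These levels are far below those of the other stalk subunits, Atp5pd and Atp5po, at means of 116 and 133 FPKM. The row named Atp5f1c, the gamma subunit, has an Entrez identifier that RefSeq gives to Taf3 and a model that spans 184899 bases, so its mean of 18.7 FPKM may not be that of the subunit alone.

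The 13 mitochondrially encoded mRNAs had nearly the same order of libraries in every gene. Their summed FPKM was 41254, 34697 and 54233 in PCL replicates 1 to 3 and 52953, 44349 and 35002 in PLLARS_US replicates 1 to 3, which is 6.86 to 10.1 percent of all FPKM. PCL replicate 3 and PLLARS_US replicate 1 were the highest 2 libraries for all 13, against 44.6 percent of the tested nuclear members and 12.1 percent of all tested genes. PCL replicate 2 and PLLARS_US replicate 3 were the lowest 2 for 11 of 13, against 10.8 percent of the tested nuclear members and 2.49 percent of all tested genes. Mitochondrial mRNAs come from long shared precursor transcripts, so these are not 13 independent measurements. The muscle-rich libraries were thus the highest, but PLLARS_US replicate 2, with the least muscle marker RNA, was above PCL replicate 2 and PLLARS_US replicate 3, and the part of muscle RNA in this order was not tested. The mitochondrial sum was 5.42, 4.73 and 5.16 times the nuclear sum in PCL and 6.32, 5.95 and 4.57 times in PLLARS_US. The 2 groups overlap in this ratio, and the highest and the lowest value are both in PLLARS_US.

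**Figure D4:**
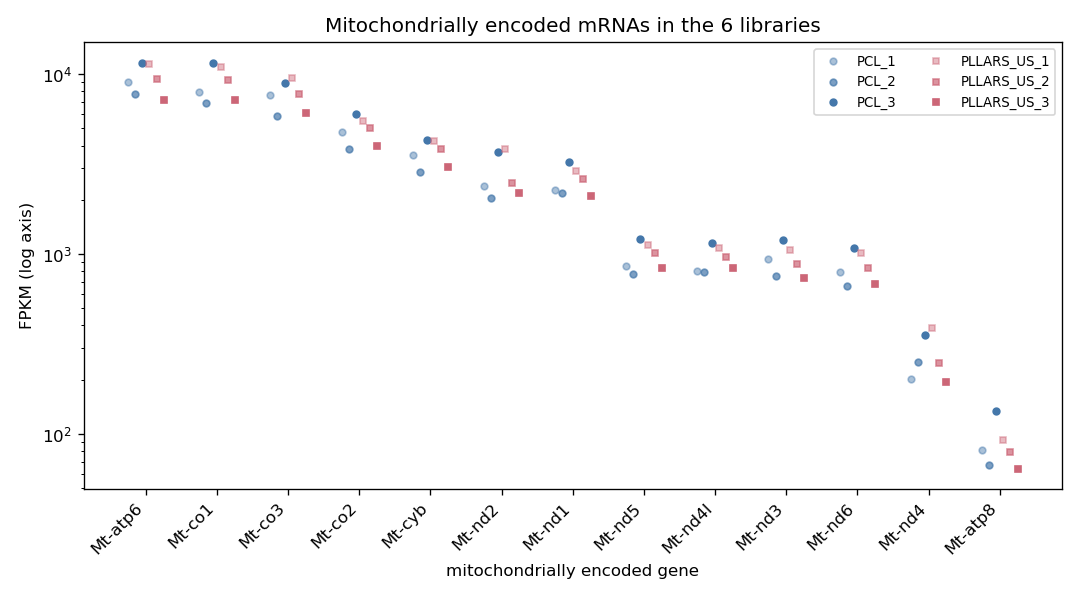
FPKM (vertical log axis) of the 13 mitochondrially encoded genes (horizontal axis, by mean FPKM) in each library, with PCL as blue circles and PLLARS_US as red squares, replicates 1 to 3 from pale to dark. In every gene PCL replicate 3 and PLLARS_US replicate 1 are the 2 highest libraries, and the groups overlap.

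The most abundant member was Mt-atp6, the proton channel subunit of ATP synthase, encoded on the plus strand of the mitochondrial genome from 7919 to 8599. It was at 9067, 7700 and 11431 FPKM in PCL and at 11338, 9429 and 7171 FPKM in PLLARS_US, and its difference was -0.019 log2 units. Mt-co1, Mt-co3 and Mt-co2, the complex IV subunits of the mitochondrial genome, had means of 8966, 7601 and 4839 FPKM and differences of 0.069, 0.054 and -0.0059 log2 units. Mt-co1, the catalytic core, was at 7946, 6889 and 11547 FPKM in PCL and at 10984, 9231 and 7199 FPKM in PLLARS_US. Mt-cyb, cytochrome b of complex III, had a mean of 3640 FPKM and a difference of 0.056. The FPKM means of neighbours in this order differed by less than the spread between libraries in several cases, as for Mt-atp6 and Mt-co1.

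The complex I genes fell into a higher and a lower group by FPKM. Mt-nd2 and Mt-nd1 had means of 2772 and 2550 FPKM, and Mt-nd5, Mt-nd4l, Mt-nd3 and Mt-nd6 had means of 966, 933, 922 and 843 FPKM. Mt-nd4 was the lowest of these, at 202, 249 and 354 FPKM in PCL and at 385, 246 and 195 FPKM in PLLARS_US. The differences were 0.064 for Mt-nd2, -0.013 for Mt-nd1, 0.08 for Mt-nd5, 0.076 for Mt-nd4l, -0.11 for Mt-nd3, 0.012 for Mt-nd6 and 0.018 log2 units for Mt-nd4. Mt-nd4l (9870 to 10166) and Mt-nd4 (10160 to 11537) overlap and share a transcript, as do Mt-atp8 (7758 to 7961) and Mt-atp6. Still Mt-nd4 was listed well below Mt-nd4l, and Mt-atp6 at 85.0 to 123 times the FPKM of Mt-atp8. Mt-atp8 was at 81.3, 67.2 and 135 FPKM in PCL and at 92.0, 79.4 and 63.9 FPKM in PLLARS_US, with a difference of -0.22 log2 units and the smallest unadjusted p of the mitochondrial members, 0.48, by limma. Levels of overlapping and very short models depend on how the authors' counting split reads, which is not given in the sources used here. Mt-nd6 is the sole member on the minus strand of the mitochondrial genome, and whether the libraries keep strand is not given in the sources used here, so its reads may include some of the opposite strand.

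Genes that serve the chain but are not among the members were counted from lists of other pathway genes. The electron carrier list includes Ndufab1, the acyl carrier subunit of complex I, which the choice by symbol left out. With limma, 0 of 47 tested assembly factors, 0 of 20 electron carrier genes, 0 of 34 genes of mitochondrial gene expression, 0 of 14 biogenesis regulators and 0 of 19 citric acid cycle genes had an adjusted p under 0.05. At an unadjusted p under 0.05 there were 1 higher and 1 lower assembly factor, 2 lower carrier genes, 1 lower gene of mitochondrial gene expression, and none among the regulators or the citric acid cycle, beside 1.99 percent higher and 5.01 percent lower over all tested genes. The list medians were -0.019, -0.047, -0.055, -0.068 and -0.12 log2 units in that order, beside -0.042 over all tested genes. The citric acid cycle list also holds pyruvate dehydrogenase subunits and the pyruvate carriers Mpc1 and Mpc2. Its genes shared the library pattern of the nuclear subunits. Their median deviation was 0.55 log2 units in PCL replicate 3 and between -0.21 and 0.063 elsewhere. Assembly factors shared that library pattern little, with 0.05 in PCL replicate 3.

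Cox20, an assembly factor that chaperones Mt-co2 during its maturation, had the smallest p of these lists. It was at 52.6, 56.7 and 43.5 FPKM in PCL (50.9 ± 6.76, SD, n = 3) and at 28.1, 29.3 and 27.8 FPKM in PLLARS_US (28.4 ± 0.785, SD, n = 3). The groups lay far apart, with a difference of -0.81 log2 units, a standard error of 0.13 and a limma adjusted p of 0.24, and the adjusted p was 0.0274 with array weights. Mt-co2, its client, differed by -0.0059 log2 units. Tmem70, an assembly factor of ATP synthase, was at 8.76, 8.44 and 8.07 FPKM in PCL and at 10.2, 10.5 and 11.0 FPKM in PLLARS_US, a difference of 0.29 with a limma adjusted p of 0.689. Atpaf2, which assists the alpha subunit of ATP synthase, had a difference of -0.28 with an adjusted p of 0.748.

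Among the carriers, Coq6 and Pdss1, which serve ubiquinone synthesis, were lower in each PLLARS_US library than in any PCL library. This held for 2 of 20 carrier genes, beside 10.0 percent of all tested genes. Coq6 was at 11.9, 10.8 and 9.92 FPKM in PCL and at 7.89, 7.57 and 8.19 FPKM in PLLARS_US, with a difference of -0.41. Pdss1 was at 6.28, 5.87 and 7.55 FPKM in PCL and at 4.78, 4.75 and 4.73 FPKM in PLLARS_US, with a difference of -0.39. Their limma adjusted p were 0.565 and 0.653. Coq10a had a difference of -0.58 with a standard error of 0.43, and of -0.17 without PCL replicate 3. Cycs, cytochrome c, was at 54.3, 63.7 and 111 FPKM in PCL and at 69.8, 48.5 and 49.9 FPKM in PLLARS_US, again highest in PCL replicate 3 (named for its role after its values were seen).

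In mitochondrial gene expression, Fastkd1 and Tbrg4, of the FASTK family of mitochondrial RNA-binding proteins, and the translation factor Gfm2 had differences of -0.54, -0.40 and -0.23 log2 units with limma adjusted p of 0.588, 0.737 and 0.839. Tfam, which packages mitochondrial DNA and serves its transcription, was named for its role after its values were seen. It was at 20.0, 20.2 and 18.6 FPKM in PCL and at 33.6, 18.7 and 23.2 FPKM in PLLARS_US. Its 2 highest libraries were both in PLLARS_US, but the groups overlapped. Esrra, the estrogen-related receptor alpha that activates genes of oxidative metabolism, had the smallest p of the regulators. It was at 24.6, 26.7 and 50.1 FPKM in PCL and at 23.4, 19.0 and 16.3 FPKM in PLLARS_US, with a difference of -0.70 and a limma adjusted p of 0.728. Its groups did not overlap, with PLLARS_US below, as for 2 of 14 regulators beside 10.0 percent of all tested genes. PCL replicate 3 was far above the rest. Without it the difference was -0.39. Ppargc1b, a coactivator of this receptor, was at 10.2 FPKM in PCL replicate 3 and between 1.54 and 3.09 FPKM in the other libraries (named after its values were seen). Pprc1 and Crtc2, both coactivators, had differences of -0.30 and -0.18. From the citric acid cycle list, Dlst, Dlat and Pdhb had differences of -0.25, -0.32 and -0.28 log2 units. Dlst belongs to an enzyme of the cycle, while Dlat and Pdhb are subunits of pyruvate dehydrogenase. The limma adjusted p of these 5 genes was between 0.832 and 0.882. Without PCL replicate 3 the difference was -0.12 for Dlst and -0.035 for Pdhb, and without that library and PLLARS_US replicate 1 it was -0.048 for Dlat.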

How the data were processed

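Poly(A)-enriched RNA of 6 rat sciatic nerves, 3 per group, was measured by RNA sequencing. Groups and replicate numbers come from the sample titles. The values are FPKM per gene model, fragments scaled to model length and library depth, as deposited by the authors with 1 column per library and no pooling. The tools named in the submitters' processing notes, without roles or order, are DESeq 1.28.0, StringTie 1.3.3b, HISAT2 2.1.0 and FastQC 0.11.5. The notes name the human build hg38 while the identifiers are rat, so deposited positions are printed as they stand and their build is not settled. A second deposited sheet was equal to the first in 21028 rows and was left aside. FPKM are not counts, and count models were not used. For 460 small models all 1156 values checked were whole multiples of a step within 0.05, which placed the depth at 15320000 to 16690000 fragments per library.

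The 13720 genes whose mean FPKM reached 1 were tested on log2(FPKM + 1) by limma 3.58.1 (R 4.3.3). The model held group alone, moderation followed the mean-variance trend, and p-values were adjusted by Benjamini-Hochberg over all of these genes at 0.05. Differences on this scale understate the change of low genes. The filter left out 2 nuclear members, Ndufs6-ps1 and Cox7a1. The fit was tested on simulated data. Among the nuclear models 5 are pseudogenes in RefSeq. Reads shared with pseudogenes, and with nuclear copies of mitochondrial sequence, leave such models uncertain. Named genes are all mitochondrial members, the paired tissue forms, and of each complex the 3 of smallest p and the 2 of highest mean FPKM. Of each other list the 3 of smallest p are named, and genes named beyond these are said to be so. The members and lists were chosen with earlier results of these data known, and Ndufa4 and Ndufa4l2 were placed in complex IV after seeing the table. Promoter windows are from RefSeq, build GRCr8. Same-numbered replicates were not taken as pairs. Alternatives covered pseudocount, filter, scaling, trend, array weights, a replicate block, a muscle covariate and leaving out libraries. Leaving out the RefSeq pseudogene models was added after seeing the data. The result for 1 member is not reported on its own here.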

Additional observations from a re-analysis of the deposited data

How the results depend on the processing

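Under all alternatives run, 0 nuclear and 0 mitochondrial members had an adjusted p under 0.05. The number of nuclear members at an unadjusted p under 0.05 was 0 as reported, 5 with array weights (Atp5pb, Ndufv3, Ndufb10, Atp5if1 and Ndufa12, 3 higher and 2 lower) and 1 after quantile normalization (Cox6a1), where 20.6 and 7.06 percent of all tested genes had such a p. It was 3 without both PCL replicate 3 and PLLARS_US replicate 1 (Atp5pb, Ndufb10 and Atp5if1, beside 13.7 percent of all tested genes), 1 without PCL replicate 3 (Ndufb10, beside 6.34 percent), 1 without PLLARS_US replicate 2 (Ndufs5, beside 5.85 percent) and 0 without any other single library. The number of all tested genes at an adjusted p under 0.05 was 118 with array weights, 4 with the muscle marker level as a covariate, 3 without PLLARS_US replicate 2 and 0 without any other single library. The nuclear median difference ran from -0.17 without PCL replicate 2 to 0.075 without PCL replicate 3, and the mitochondrial median from -0.12 without PLLARS_US replicate 1 to 0.20 without PCL replicate 3. With array weights they were 0.026 and 0.15. Without the RefSeq pseudogene models, a choice made after seeing the data, the nuclear median was -0.078 and 59 of 79 members were lower. Median-ratio scaling moved the median of all tested genes from -0.042 to 0.015. The cause of these shifts was not tested.

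Whether same-numbered replicates were paired is not given in the sample titles. Deviations from the group mean sum to 0 within each group, so their correlations take mixed signs and cannot decide it. Deviations of same-numbered libraries correlated at -0.50, 0.15 and -0.32, and those of PCL replicate 3 and PLLARS_US replicate 1 at 0.63. With the replicate block, 0 members passed, 543 genes against 960 had an unadjusted p under 0.05, and the nuclear and mitochondrial medians were -0.063 and 0.018.

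Of 1005 values of single named genes under alternatives, 914 kept sign and call, 1 newly passed the threshold (Cox20 with array weights) and 90 changed sign. With a pseudocount of 0.1 the difference was -0.28 for Cox6a2. After median-ratio scaling the difference was 0.044 for Mt-atp6, 0.051 for Mt-nd1, 0.058 for Mt-co2, 0.019 for Cox7b, 0.056 for Cox4i1 and 0.019 for Uqcr11. After quantile normalization the difference was -0.023 for Mt-nd4, 0.12 for Mt-nd1, -0.049 for Mt-nd6 and 0.033 for Cox4i2. With array weights the difference was 0.019 for Mt-atp8, 0.059 for Mt-atp6, 0.026 for Mt-nd3, -0.11 for Mt-nd4, 0.076 for Mt-nd1, 0.15 for Mt-co2, -0.085 for Cox6b2, 0.076 for Cox7b, 0.052 for Cox4i2, -0.94 for Cox6a2, 0.11 for Cox4i1, 0.081 for Ndufb8, 0.044 for Ndufb9 and 0.045 for Sdhc. With the muscle covariate the difference was 0.0016 for Cox4i1. Over leaving out each library, or PCL replicate 3 together with PLLARS_US replicate 1, the lowest and highest differences were -0.43 to 0.070 for Mt-atp8, -0.17 to 0.16 for Mt-atp6, -0.27 to 0.060 for Mt-nd3, -0.017 to 0.25 for Mt-nd4l, -0.053 to 0.27 for Mt-nd5, -0.18 to 0.31 for Mt-nd2, -0.25 to 0.24 for Mt-nd4, -0.12 to 0.17 for Mt-nd1 and -0.15 to 0.20 for Mt-nd6. They were -0.10 to 0.20 for Mt-cyb, -0.089 to 0.28 for Mt-co1, -0.11 to 0.22 for Mt-co3, -0.16 to 0.16 for Mt-co2, -0.96 to 0.22 for Ndufa4l2, -0.42 to 0.61 for Cox6b2, -0.18 to 0.16 for Cox7b, -0.079 to 0.20 for Ndufa4 and -0.28 to 0.18 for Cox4i2. For the others they were -1.50 to 1.24 for Cox8b, -1.41 to 2.14 for Cox6a2, -0.10 to 0.14 for Cox4i1, -0.35 to 0.10 for Atp5f1b, -0.39 to 0.045 for Atp5f1a, -0.31 to 0.043 for Ndufb8, -0.21 to 0.12 for Ndufb9, -0.30 to 0.075 for Uqcr10, -0.22 to 0.034 for Uqcrq, -0.16 to 0.13 for Uqcr11 and -0.26 to 0.047 for Sdhc. These are the genes whose sign changed. Others kept their sign but moved by more than 1.5 times, among them Coq10a (-0.84 to -0.17), Pdhb (-0.46 to -0.035), Dlat (-0.49 to -0.048), Dlst (-0.34 to -0.12), Esrra (-0.89 to -0.39), Sdhd (-0.48 to -0.016), Sdhb (-0.35 to -0.036), Cox6a1 (-0.41 to -0.18), Ndufs5 (-0.65 to -0.17), Cox8a (-0.27 to -0.016), Cox6b1 (-0.28 to -0.017), Uqcrh (-0.32 to -0.097), Ndufs3 (-0.43 to -0.11), Atp5f1d (-0.42 to -0.12), Atp5mc3 (-0.49 to -0.14), Atp5pf (-0.30 to -0.12), Ndufb10 (0.18 to 0.41), Pprc1 (-0.42 to -0.15) and Crtc2 (-0.28 to -0.10). The cause was not tested. With 3 rats per group, the data do not tell apart the differences inside an interval given, and values near 1 FPKM rest on few fragments.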
